A study of Mus musculus with 7 samples.

Results

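Bulk cortex was compared between animals labelled CD38 and animals labelled IgG, all of them of the FAD genotype, a model of familial Alzheimer's disease. Members were the cortex wells of FAD mice whose well name and sample sheet gave the same treatment: 7 CD38 mice and 7 IgG mice, 14 of the 47 wells in the series. Every well is the cortex of 1 mouse, and all 14 animals carried the FAD transgenes, so the comparison differs in the injected agent and not in genotype. The title of the series speaks of targeting CD38 in a mouse model, and the CD38 label is read here as an antibody against CD38 with IgG as its control. The FAD line, the promoter that drives its transgenes, the antibody clone, dose, schedule, age and sex were not stated in the sources at hand. The 9 wild-type (WT) mice given PBS supplied a reference level, and WT differs from both FAD groups in genotype and in injection. The hippocampus of the same 14 mice was used to ask whether a cortical difference was also seen in a second region.

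CD38 is a membrane enzyme that consumes NAD, the coenzyme shared by redox metabolism, the sirtuin deacetylases and the PARP enzymes of DNA repair. In brain it is known from astrocytes, microglia and infiltrating immune cells, and it is also a surface receptor of lymphocytes. Amyloid in FAD mice is accompanied by plaque-associated microglia that express Trem2, Tyrobp and Cst7 and by reactive astrocytes that express Gfap, which were measured here beside the genes of NAD metabolism.

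RNA was read by mcSCRB-seq, in which the 3' end of each transcript is tagged with a barcode of its well and several wells are sequenced as 1 pool. The pools numbered 7, and 6 of them held cortex of both groups. Counts over pools compare the CD38 mouse with the IgG mouse of the same pool. In pool 6 the CD38 mouse was set against the mean of IgG mice 2 and 7. CD38 mouse 3, in pool 8, had no mouse of the IgG group beside it and is left out of these counts. Total counts per cortex well ran from 1270918 to 5101368 in IgG mice (median 3090289), from 2109934 to 4637276 in CD38 mice (median 2890018) and from 2078974 to 4949220 in WT mice (median 3509152). The ribosomal RNA share was 6.09% ± 3.79 (SD, n = 7) in IgG and 5.19% ± 2.02 (n = 7) in CD38 mice, with IgG mice 4 and 5 highest at 10.6% and 12.4%. In two-sided exact permutation tests of total counts, genes detected, ribosomal RNA share and mitochondrial share, the lowest p was 0.553 and every p adjusted over the 4 tests was 0.811, where 0.000583 is the smallest p this design allows. Cortical layer genes were present in every well. Their summed level was 1880 to 2446 CPM (counts scaled to the library total with TMM factors) in IgG and 1998 to 2664 in CD38 mice. These sums run over the 24 of 26 genes that were listed, of which 23 could be tested. Striatal markers, which come from tissue beside the cortex, ranged from 268 to 791 CPM in IgG and from 262 to 670 in CD38 mice. Folr1 and Clic6 of the choroid plexus stayed at 7 and 11 counts in all IgG wells and 31 and 30 in all CD38 wells, and CD38 mouse 7 held 1786 CPM of Ttr, the transthyretin of that tissue, against at most 132 in any IgG mouse. CD38 mouse 4 had the lowest level of the 14 mice in 11 of 45 gene lists and the highest in 5, and leaving out the 2 wells above 10% ribosomal RNA, those of IgG mice 4 and 5, moved other lists. Medians of lists are therefore given also without CD38 mouse 4 or without the wells of high ribosomal RNA share where either turned the sign or moved the value by more than 1.5 times, and 23 of 121 named genes changed the sign of their difference in some setting.

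No gene passed the test. Of 12968 genes tested with edgeR's quasi-likelihood test, with the pool in the model and Benjamini-Hochberg adjustment, 0 were called higher in CD38 mice (0.0%) and 0 lower, and the smallest adjusted p was 0.9999. At an unadjusted p under 0.05 there were 195 genes (1.5%), 88 higher (0.679%) and 107 lower (0.825%). With no difference in any gene, a well-calibrated test would put a share of about 0.05 of genes there, so the share seen was smaller. Why it was smaller, and whether the intervals of this fit are wider than they should be, was not tested. DESeq2 called 0 genes with 152 at an unadjusted p under 0.05, and voom with sample quality weights called 0 with 343. Of all genes tested, 6317 (48.7%) had a log2 difference above 0, and the median difference was -0.0049. The precision of this fit is given by its intervals: the 95% confidence interval of the CD38 minus IgG difference lay inside a 2-fold change either way for 12402 genes (95.6%) and inside a 1.5-fold change for 8875 (68.4%). Smaller differences in a single gene were mostly not detectable in this fit of 7 mice in each group, the median standard error being 0.175 on the log2 scale.

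**Figure D1:**
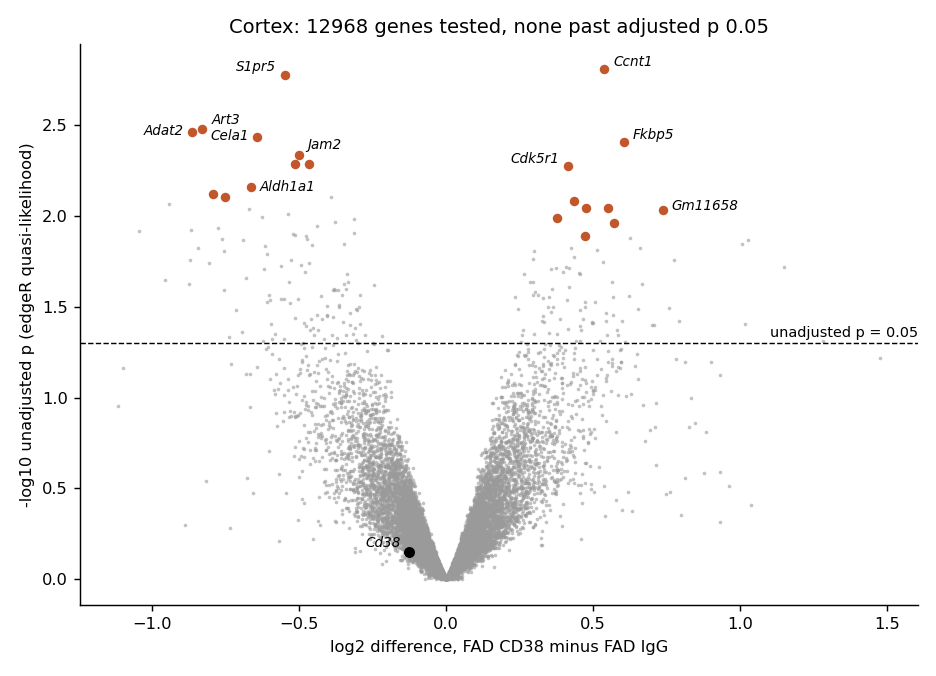
Every point is 1 of 12968 genes tested in cortex, by its log2 difference of FAD CD38 minus FAD IgG (horizontal) and the -log10 of its unadjusted p (vertical), with the 10 genes of smallest p in each direction in orange, some of them named, and Cd38 in black. Genes lie on both sides of 0, and 195 lie above the dashed line at an unadjusted p of 0.05.

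The gene of the target itself was near the lower end of detection, and its difference was smaller than the spread within each group. Cd38 had 88 counts over all IgG wells and 73 over all CD38 wells. Its level ran from 2.12 to 6.49 CPM in IgG mice (median 3.87), from 1.44 to 5.37 in CD38 mice (median 4.07) and from 1.04 to 4.13 in WT mice. The groups overlapped almost wholly, and 3 of 6 pools had the CD38 mouse higher. The log2 difference was -0.12 with a 95% interval of -0.80 to 0.55, so a change of moderate size in either direction was not detectable at this depth. It ran from -0.34 without pool 9 to 0.36 without pool 6. A transcript level says nothing about how much CD38 protein an antibody had bound. Bst1, the paralog of Cd38 with the same enzymatic activity, had 1 count in IgG and 4 in CD38 wells and was not tested.

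**Figure D2:**
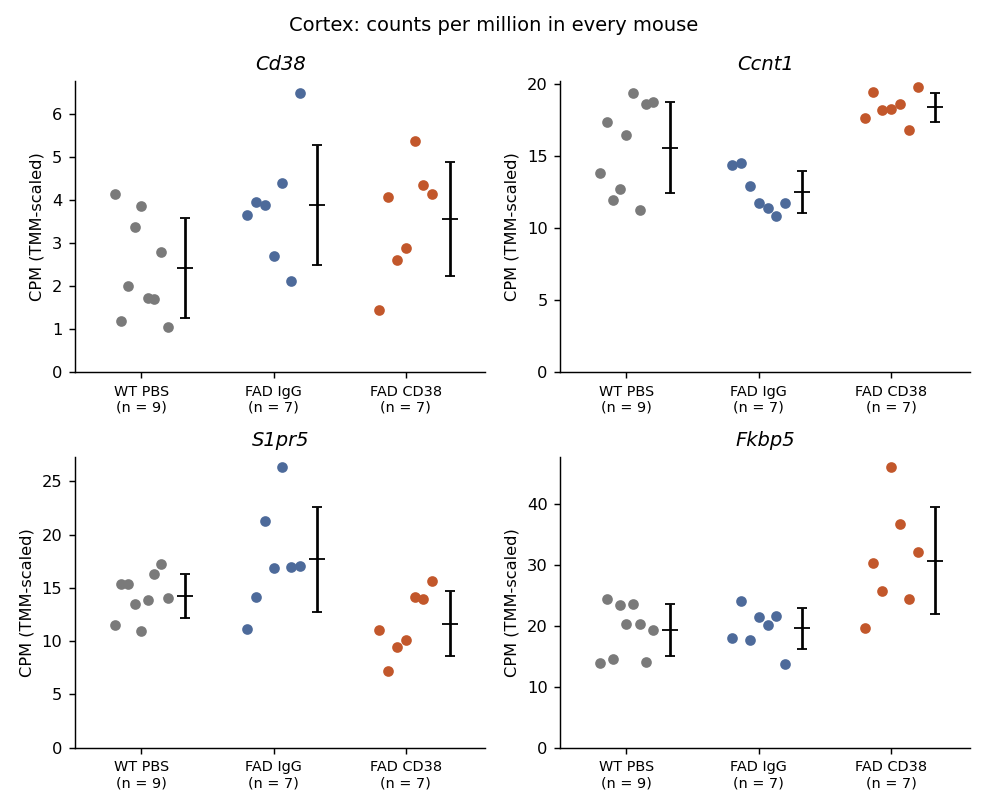
CPM in every cortex (vertical) of Cd38, Ccnt1, S1pr5 and Fkbp5 in 9 WT, 7 FAD IgG and 7 FAD CD38 mice, each point being 1 mouse and the bar beside it the mean and SD. Ccnt1 is the panel in which the lowest CD38 mouse (16.8) lies above the highest IgG mouse (14.6), while the groups overlap for Cd38, S1pr5 and Fkbp5.

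Other enzymes that use or make NAD had differences close to 0. Among the 10 tested NAD-consuming enzymes besides Cd38, 5 were above 0, with a median log2 difference of 0.0081 beside -0.0049 over all genes, or 0.06 without CD38 mouse 4 and 0.04 without the wells of high ribosomal RNA share. Sarm1, the NADase of degenerating axons, differed by 0.03 (95% interval -0.77 to 0.83) and was the least precise, with 1 CD38 mouse at 87.1 CPM and values from -0.31 without pool 7 to 0.52 without the wells of high ribosomal RNA share. Parp1, the main DNA-damage PARP, differed by 0.19 (-0.10 to 0.49), Sirt1, the nuclear deacetylase, by 0.12 (-0.25 to 0.48), and Sirt3, the mitochondrial one, by 0.11 (-0.28 to 0.49). Sirt2, a deacetylase abundant in oligodendrocytes, was at 129 ± 20.6 CPM (SD, n = 7) in IgG and 126 ± 20.2 (n = 7) in CD38 mice. On the side of synthesis, 7 of 10 tested genes were above 0 with a median of 0.06, or 5 of 10 with a median of 0.01 without the wells of high ribosomal RNA share. Nampt, the rate-limiting enzyme of NAD salvage, was at 21.8 ± 3.42 CPM in IgG and 21.7 ± 2.93 in CD38 mice, a difference of -0.06 (-0.34 to 0.23). Nmnat1, the nuclear enzyme of the last step, differed by 0.29 (-0.13 to 0.70), and Slc25a51, the mitochondrial NAD carrier, by 0.10 (-0.13 to 0.32). None of these intervals reached a 2-fold change.

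In energy metabolism downstream of NAD the intervals of all tested genes likewise lay inside a 2-fold change. The 72 tested nuclear genes of the respiratory chain had a median of -0.03, with differences between -0.18 and 0.08, and all 72 intervals lay inside a 2-fold change. There 22 of 72 were above 0, against 2 of 72 with a median of -0.13 without the wells of high ribosomal RNA share, and the median was 0.05 without pool 7 and -0.0051 without CD38 mouse 4. Among 11 mitochondrially encoded protein genes 7 were above 0 (median 0.01, or 0.10 without those wells, 0.04 without that mouse and -0.11 without pool 11). Glycolysis genes were above 0 in 16 of 19 (median 0.07), but without the wells of high ribosomal RNA share in 7 of 19 (median -0.11), so their direction turned. Hk2, a hexokinase, had the smallest p of the glycolysis genes. Its level was 5.40 to 10.3 CPM in IgG mice (median 8.40) and 8.20 to 15.1 in CD38 mice (median 11.1), with 4 CD38 mice above every IgG mouse, and its log2 difference was 0.39 (-0.005 to 0.79, unadjusted p = 0.053). In the tricarboxylic acid cycle 9 of 21 were above 0 (median -0.01), against 1 of 21 (median -0.14) without the wells of high ribosomal RNA share and 13 of 21 (median 0.01) without CD38 mouse 4. Fatty acid oxidation genes were above 0 in 4 of 16, with a median of -0.10, or -0.06 without that mouse.

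The genes nearest to a call were read as single values. Only Ccnt1 had groups that did not overlap, 1 gene of 12968 (0.00771%) with every CD38 mouse above every IgG mouse, and 0 genes (0.0%) had the reverse. With group labels assigned at random, a single gene separates fully in either direction with a probability of about 0.000583. The share seen was smaller than that, so 1 such gene among all those tested is no more than chance gives. Ccnt1 encodes cyclin T1, the regulatory subunit with which CDK9 forms P-TEFb, the kinase that releases paused RNA polymerase II. Its CPM was 14.4, 14.6, 12.9, 11.8, 11.4, 10.9 and 11.8 in IgG mice 1 to 7, and 17.7, 19.5, 18.2, 18.3, 18.7, 16.8 and 19.8 in CD38 mice 1 to 7. The CD38 values lay close together and above all IgG values, and the WT values, 11.3 to 19.4 CPM, reached into both ranges. A mouse left out because its well name gave IgG and its sheet CD38 stood at 17.6 CPM on library totals. On that scale the highest IgG mouse was at 15.8 and the lowest CD38 mouse at 16.8. Counted as IgG, that mouse would make the groups overlap. The log2 difference was 0.54 ± 0.15 (SE, 95% interval 0.23 to 0.85), positive in 6 of 6 pools (0.42 to 0.83 within a pool). That sign in every pool follows from the separation of the groups and is no further evidence. The adjusted p by edgeR was 0.9999 (unadjusted 0.00156), so the difference is not called. It ran from 0.43 to 0.59 over the 35 other settings tried, and was 0.54 without CD38 mouse 4.

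The partners of cyclin T1 had values nearer to 0. Of the 26 other tested genes of P-TEFb and transcription elongation 17 were above 0, with a median of 0.03, or 0.07 without the wells of high ribosomal RNA share. Cdk9, its kinase subunit, was at 61.5 ± 15.5 CPM (SD, n = 7) in IgG and 63.2 ± 10.0 (n = 7) in CD38 mice (0.08, 95% interval -0.25 to 0.40). Ccnt2, the alternative cyclin, differed by -0.03 (-0.37 to 0.31). Hexim1, which holds P-TEFb inactive, differed by 0.17 (-0.11 to 0.46) and Larp7, of the same inhibitory particle, by 0.23 (-0.06 to 0.52), and both were smaller, 0.10 and 0.08, without those wells. Supt6, a histone chaperone of elongating polymerase, was on the lower side at -0.42 (unadjusted p = 0.028), or -0.18 without those wells, and its hippocampal difference was 0.39.

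S1pr5 had the smallest p on the lower side. It encodes a sphingosine-1-phosphate receptor known from oligodendrocytes and from circulating natural killer cells. Levels were 11.1 to 26.4 CPM in IgG mice (median 16.9), 7.24 to 15.7 in CD38 mice (median 11.1) and 11.0 to 17.2 in WT mice. The groups overlapped: 4 CD38 mice lay below every IgG mouse, and all 7 lay below the IgG mean. The log2 difference was -0.55 ± 0.15 (SE; -0.87 to -0.23), negative in 6 of 6 pools, with an unadjusted p of 0.00167 and an adjusted p of 0.9999 by edgeR. Without the wells of high ribosomal RNA share it was -0.44, and without CD38 mouse 4 it was -0.48.

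The other sphingosine-1-phosphate genes had values around 0. Of the 16 tested besides S1pr5, 11 were above 0 with a median of 0.04, and 8 with a median of -0.01 without the wells of high ribosomal RNA share. Without CD38 mouse 4 the median was 0.06. S1pr1, the receptor abundant in astrocytes and endothelium, was at 76.6 ± 6.18 CPM (SD, n = 7) in IgG and 70.1 ± 17.1 (n = 7) in CD38 mice. Among the enzymes, Sphk2, a kinase that makes the lipid, differed by 0.27 (-0.10 to 0.63; 0.12 without those wells) and Sgpl1, the lyase that degrades it, by 0.07 (-0.32 to 0.47). Sphk1, the other kinase, had a difference of 0.81, or 0.11 without CD38 mouse 4, in which it stood at 44.8 CPM against 7.17 or less in the other CD38 mice. Of 22 markers of T and natural killer cells 17 were listed and 4 passed the filter on low counts. The 17 had a summed level of 642 to 1149 CPM in IgG and 728 to 1152 in CD38 mice, most of it Thy1, which neurons express. Besides Thy1, those tested were Ccl5 (0.11), Cd4 (0.12) and Trbc2 (0.04), a chain of the T cell receptor. The median of the 4 was 0.12, or -0.02 without the wells of high ribosomal RNA share. Among the members not tested, Cd3e had 6 counts over all IgG and 7 over all CD38 wells, and Nkg7 had 24 and 20.

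Oligodendrocyte genes, a list that holds S1pr5, were below 0 in 18 of 24, with a median of -0.16, and 6 of the 23 besides S1pr5 were above 0, with the same median. Opalin, a myelin membrane protein, was at 40.7 ± 6.35 CPM in IgG and 30.6 ± 10.7 in CD38 mice (-0.38, unadjusted p = 0.025). Mbp, the myelin basic protein, differed by -0.16 (-0.48 to 0.15; -0.08 without CD38 mouse 4), while Mog of the outer myelin sheet differed by 0.01 (-0.24 to 0.26). The list's level per mouse, its mean log2 CPM, was 6.07 to 6.44 in IgG and 5.79 to 6.47 in CD38 mice, so both the lowest and the highest mice were in the CD38 group. In 3 of 6 pools the CD38 mouse was higher. Without CD38 mouse 4 the median was -0.09. In bulk tissue, fewer cells of a type and less RNA per cell cannot be told apart.

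Fkbp5 had the second smallest p on the higher side. It encodes a co-chaperone of the glucocorticoid receptor and is a standard target gene of that receptor. Its level was 13.8 to 24.1 CPM in IgG mice (median 20.2), 19.7 to 46.2 in CD38 mice (median 30.3) and 13.9 to 24.5 in WT mice. The groups overlapped in 1 CD38 mouse: the other 6 were above every IgG mouse, and CD38 mouse 4 was the highest. The log2 difference was 0.60 ± 0.19 (SE; 0.213 to 0.995), positive in 6 of 6 pools, with an unadjusted p of 0.0039 and an adjusted p of 0.9999 by edgeR. It was 0.42 without CD38 mouse 4 and 0.35 with sample quality weights.

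Other glucocorticoid-induced genes were mostly above 0 as well, and none was called. Of the 25 tested besides Fkbp5, 21 were above 0, with a median log2 difference of 0.19 beside -0.0049 over all genes, and 3 had an unadjusted p under 0.05. With Fkbp5 the list held 22 of 26 above 0 and a median of 0.22. Angptl4, an inhibitor of lipoprotein lipase, ran from 0.879 to 5.29 CPM in IgG (median 3.65) and from 3.70 to 22.6 in CD38 mice (median 6.79), a difference of 1.01 that was 0.56 without CD38 mouse 4. Klf9, a Krüppel-like factor induced by glucocorticoid, was at 192 to 232 CPM in IgG (median 214) and 202 to 500 in CD38 mice (median 236), so the highest values lay further apart than the medians. Its difference of 0.36 was 0.20 without CD38 mouse 4. Nfkbia, the inhibitor of NF-kappaB, differed by 0.33 (-0.01 to 0.67), which was 0.17 without that mouse and also 0.17 with sample quality weights. Sgk1, a kinase of salt and stress responses, differed by 0.29 (-0.10 to 0.68), but by -0.01 without the wells of high ribosomal RNA share. Tsc22d3, the leucine zipper known as GILZ, differed by 0.13 (-0.28 to 0.54), or -0.20 without those wells, and Nr3c1, the receptor itself, by -0.01 (-0.29 to 0.27).

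In levels per mouse the glucocorticoid-induced list was 4.74 to 5.01 in the 7 IgG mice, and 4.93, 4.98, 4.83, 5.65, 5.17, 5.19 and 5.18 in CD38 mice 1 to 7. CD38 mice 4 to 7 were above the IgG range and mice 1 to 3 within it, so the groups overlapped, and CD38 mouse 4 was far above the rest. The CD38 mouse was higher in 6 of 6 pools, but in pool 6 only just. There CD38 mouse 1 stood at 4.93, between IgG mouse 2 at 5.01 and IgG mouse 7 at 4.85, whose mean was used. CD38 mouse 3, the lowest of its group at 4.83, was in pool 8 and is not in this count. Without mouse 4 the list's median was 0.15 with 23 of 26 above 0, and without the wells of high ribosomal RNA share it was 0.20. The same mouse had the highest level of immediate early genes of the 14.

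**Figure D3:**
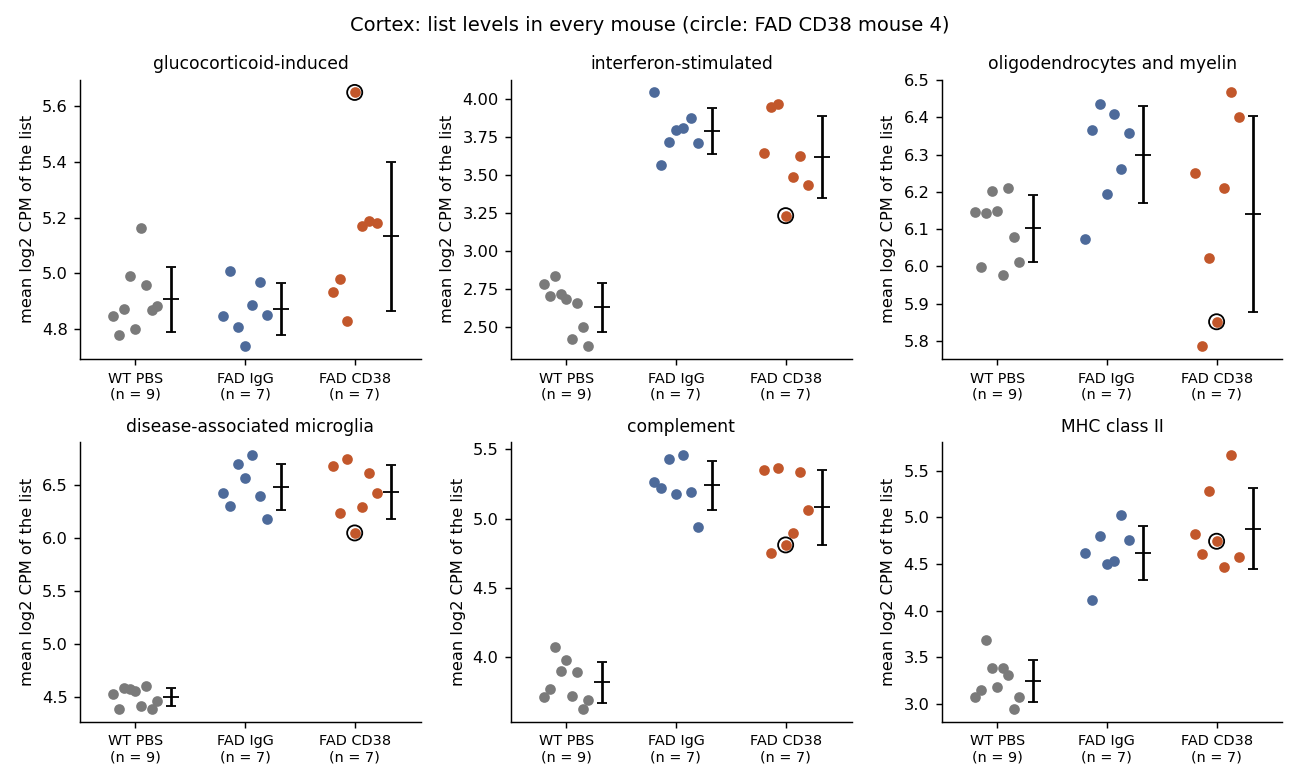
Mean log2 CPM over the tested genes of 6 lists (vertical) in every cortex of 9 WT, 7 FAD IgG and 7 FAD CD38 mice, with mean and SD beside the points and CD38 mouse 4 circled. FAD IgG and FAD CD38 mice overlap in every panel, and for disease-associated microglia, complement, interferon-stimulated and MHC class II genes both FAD groups lie above all WT mice.

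Beyond the markers, the other 8 genes of smallest p on the higher side were Cdk5r1, Nwd2, Sun2, Fgf9, Gm11658, Kcnq3, Dcp1a and Gm16409. Cdk5r1, the p35 activator of the neuronal kinase CDK5, was at 64.1 to 122 CPM in IgG (median 87.6) and 90.9 to 145 in CD38 mice (median 120), with a difference of 0.42 that was higher in 6 of 6 pools. Kcnq3, a subunit of the M-type potassium channel, was at 27.4 to 53.2 CPM in IgG (median 33.7) and 40.1 to 54.3 in CD38 mice (median 45.7), a difference of 0.38. All CD38 mice lay above the IgG mean for both genes, though the ranges overlapped. Fgf9, a growth factor made by neurons, had a difference of 0.48, or 0.31 without CD38 mouse 4, where it stood at 122 CPM against 53.8 or less in the other CD38 mice. Sun2, of the bridge between nuclear envelope and cytoskeleton, differed by 0.55, and Dcp1a, of the mRNA decapping complex, by 0.57. Gm11658 (0.74) and Gm16409 (0.47) are predicted genes with levels of 0.879 to 12.4 CPM.

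On the lower side the other 9 were Art3, Adat2, Cela1, Jam2, Klk6, Zfp949, Aldh1a1, Smagp and Inca1. Cela1, an elastase of the chymotrypsin family, was at 10.3 to 21.97 CPM in IgG (median 11.4), 6.26 to 10.6 in CD38 mice (median 7.69) and 3.34 to 8.79 in WT mice. In all, 6 CD38 mice lay below every IgG mouse, and the log2 difference was -0.64 ± 0.20 (SE). It was -0.46 without IgG mouse 5, which held the highest value. Klk6, a kallikrein protease of oligodendrocytes, was at 17.8 to 38.7 CPM in IgG (median 23.3), 13.3 to 29.6 in CD38 mice (median 18.1) and 3.57 to 8.17 in WT mice, a difference of -0.47 ± 0.15. Both genes were called higher in IgG mice than in WT mice, at log2 differences of 1.22 for Cela1 and 2.11 for Klk6 in the same fit. That comparison shares the IgG mice with CD38 minus IgG, by which both genes were picked, so the 2 differences are not independent.

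Jam2, a junctional adhesion molecule of endothelium, was at 14.3 to 23.7 CPM in IgG (median 15.5) and 7.69 to 14.7 in CD38 mice (median 11.9), with 6 CD38 mice below every IgG mouse and a difference of -0.50. Aldh1a1, a retinaldehyde dehydrogenase, was at 31.7 to 58.8 CPM in IgG (median 56.1) and 17.2 to 48.5 in CD38 mice (median 33.6), a difference of -0.66. IgG mouse 4 was the low one of its group for Aldh1a1, and without the wells of high ribosomal RNA share, which include it, the difference was -0.90. Art3 (-0.83), an ADP-ribosyltransferase family member, Adat2 (-0.86), a tRNA deaminase subunit, Smagp (-0.79) and Inca1 (-0.75) stood between 0.481 and 10.4 CPM, where a well holds few counts, and Art3 was at -0.44 with sample quality weights. None of the 20 genes changed the sign of its difference or was called in the other settings that tested it, 35 for 18 of them and 34 for Gm11658 and Inca1. These genes were chosen for the smallest p in these wells, and the other settings used mostly the same wells. Their kept sign is therefore no independent support.

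**Figure D4:**
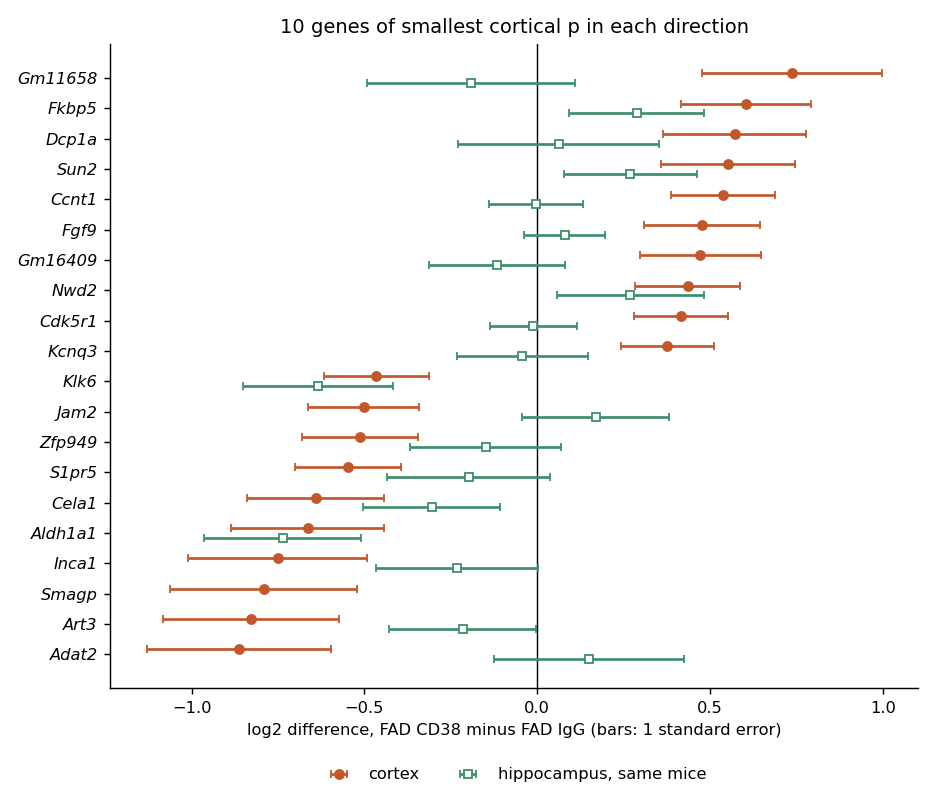
Log2 difference of FAD CD38 minus FAD IgG (horizontal) with 1 standard error for the 10 genes of smallest cortical p in each direction, in cortex (filled circles) and in hippocampus of the same mice (open squares; Smagp was not tested there). The cortical points are far from 0 because they were chosen for it, whereas in hippocampus Ccnt1 lies near 0 and Klk6 and Aldh1a1 lie as low as in cortex. Jam2, Adat2, Gm11658 and Gm16409 lie on the other side of 0 in hippocampus.

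The 20 genes were ranked on cortex alone, and hippocampus of the same mice gave values that this ranking had not used, while the gene lists were chosen with earlier results of both regions known. The hippocampus well of CD38 mouse 4 stood apart, with 1428454 counts against at least 2075237 in the other FAD mice and a mitochondrial share of 1.25% against 4.47% to 5.78%. Klk6 differed by -0.64 (unadjusted p = 0.00849) and Aldh1a1 by -0.74 (unadjusted p = 0.00437) there, on the same side as in cortex and no smaller, and without that well they were -0.62 and -0.69. These 2 had the largest hippocampal differences of the ranked genes, and were singled out after the values were seen. Fkbp5 differed by 0.29, or 0.13 without that well. S1pr5 differed by -0.20 and Cela1 by -0.31, each on the same side as in cortex and smaller. Smaller values on the cortical side were also those of Nwd2 (0.27), Sun2 (0.27), Fgf9 (0.08), Art3 (-0.22), Zfp949 (-0.15) and Inca1 (-0.23). Dcp1a was at 0.06, or -0.15 without that well. For Ccnt1 the hippocampal difference was -0.0036, for Cdk5r1 -0.01 and for Kcnq3 -0.04. Jam2 (0.17, or -0.0057 without that well), Adat2 (0.15), Gm11658 (-0.19) and Gm16409 (-0.12) stood on the other side. The hippocampal median was 0.18 for the glucocorticoid-induced genes, with 23 of 26 above 0, and 0.11 with 20 of 26 without that well. For the oligodendrocyte genes it was -0.17, with 1 of 24 above 0, and -0.11 with 4 of 24 without it. In the hippocampal fit 0 of 12728 genes were called, with 197 at an unadjusted p under 0.05, and 0 with 234 without that well. Both regions come from the same animals, so this is a second reading of these mice and not of others. A test of the difference between regions, with the mouse as a correlated block in limma voom, found 0 of 13447 genes unequal (0.0%), 324 at an unadjusted p under 0.05, and 0 also with sample quality weights (611) and without CD38 mouse 4 (313). For Ccnt1 that test gave an unadjusted p of 0.0133. No difference can therefore be called particular to cortex.

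The genes that set FAD cortex apart from WT had CD38 minus IgG differences near 0. In the same fit 433 genes were called higher in IgG than in WT mice (3.34%) and 69 lower (0.532%), and 428 higher (3.3%) and 159 lower (1.23%) in CD38 than in WT mice. These comparisons share the WT mice, and IgG minus WT shares the IgG mice with CD38 minus IgG, so their values are not independent of each other. For the 433 genes the medians were 1.18 for IgG minus WT, 1.07 for CD38 minus WT and -0.10 for CD38 minus IgG, and 409 of the 433 had a CD38 minus IgG interval inside a 2-fold change. For the 69 lower genes the medians were -0.52, -0.49 and 0.04, with 67 intervals inside.

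Trem2, the lipid receptor of plaque-associated microglia, was at 159 to 270 CPM in IgG (median 208), 145 to 259 in CD38 (median 203) and 13.8 to 41.0 in WT mice. The 2 FAD ranges covered each other and neither touched WT, and the CD38 minus IgG difference was -0.08 (-0.45 to 0.29). Tyrobp, its signalling adaptor, was at 259 to 480 CPM in IgG and 250 to 395 in CD38 mice (-0.04, -0.35 to 0.26). Cst7, a cystatin of the same cells, was at 136 to 213 and 96.7 to 243 CPM (-0.09, -0.47 to 0.29). The whole disease-associated list had 8 of 37 genes above 0 and a median of -0.08, beside 1.73 for IgG minus WT, with 36 of 37 intervals inside a 2-fold change. Without CD38 mouse 4, the lowest of the 14 for this list, its median was -0.0072 with 17 of 37 above 0, and without the wells of high ribosomal RNA share it was -0.04 with 14 of 37.

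Other microglial genes were near 0 in the same way. Homeostatic genes were above 0 in 4 of 20 (median -0.11, or -0.02 without CD38 mouse 4), with P2ry12, the purinergic receptor of resting microglia, at -0.21 (-0.67 to 0.25; -0.05 without that mouse), Cx3cr1, the fractalkine receptor, at -0.19 (-0.44 to 0.07; -0.11 without it) and Csf1r at -0.07 (-0.38 to 0.25). Fc gamma receptors and the genes of phagocytic signalling, which bind and relay IgG, were above 0 in 3 of 9 with a median of -0.02, or -0.12 without the wells of high ribosomal RNA share. Complement genes were below 0 in all 13 tested (median -0.13, lowest C5ar1 at -0.45), and C1qa differed by -0.11 (unadjusted p = 0.511). Without CD38 mouse 4 the complement median was -0.05, and 1 of 13 was above 0. Lysosomal genes were above 0 in 5 of 30 (median -0.06). Without that mouse 16 of 30 were above 0 with a median of 0.0012, while the median was -0.13 without the wells of high ribosomal RNA share.

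Interferon-stimulated genes were below 0 in 21 of 24, with a median of -0.19 and 4 at an unadjusted p under 0.05. Ifit3, an antiviral tetratricopeptide protein, was at 29.5 to 53.9 CPM in IgG (median 42.2), 25.5 to 44.3 in CD38 (median 33.1) and 10.6 to 18.3 in WT mice, with a difference of -0.35 and 6 of 6 pools lower. Gbp3, a guanylate-binding protein, differed by -0.62, but by -0.23 without the wells of high ribosomal RNA share. Usp18, which dampens interferon signalling, differed by -0.58, and Stat2, of the interferon transcription complex, by -0.48, or -0.19 without those wells. The highest of the 3 genes above 0 was Rsad2 at 0.53, or 0.56 without CD38 mouse 4 and 0.76 without those wells. The 2 FAD groups overlapped for each of these genes, and the list's median for IgG minus WT was 1.22. Levels of the interferon-stimulated list per mouse were 3.57 to 4.05 in IgG and 3.24 to 3.97 in CD38 mice, with CD38 mouse 4 lowest, and without it the median was -0.13 with 6 of 24 above 0. In hippocampus 0 of 24 were above 0, with a median of -0.29, or 2 of 24 and -0.25 without the well of CD38 mouse 4, and no single gene was called.

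Antigen-presentation genes of class II stood on the other side. Of 7 tested 5 were above 0, with a median of 0.32, which was 0.02 without pool 10 and 0.19, with 4 of 7 above 0, without the wells of high ribosomal RNA share. Cd74, the invariant chain, ran from 5.27 to 22.5 CPM in IgG (median 9.36), from 8.77 to 24.8 in CD38 (median 13.3) and from 1.11 to 4.11 in WT mice, a difference of 0.47 (-0.03 to 0.96, unadjusted p = 0.062) that was 0.24 without those wells. H2-Aa, a class II alpha chain, differed by 0.46 (-0.04 to 0.95), with 1 CD38 mouse at 48.5 CPM, and by 0.21 once the mouse whose labels conflict joined the IgG group. The groups overlapped for both, and in hippocampus the list's median was 0.02 with 4 of 7 above 0. Class I genes were above 0 in 2 of 14, with a median of -0.10, or -0.02 without CD38 mouse 4 and -0.20 without the wells of high ribosomal RNA share.

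Astrocyte genes were slightly below 0 and none was called. Reactive genes were above 0 in 6 of 21 (median -0.14, or -0.08 without CD38 mouse 4 and also -0.08 without the wells of high ribosomal RNA share). Homeostatic genes were above 0 in 3 of 21 (median -0.12), or in 9 of 21 (median -0.07) without those wells. Gfap, the astrocyte intermediate filament, was at 193 to 456 CPM in IgG (median 221), 180 to 367 in CD38 (median 220) and 19.0 to 36.2 in WT mice, so the FAD medians were almost equal and the fitted difference was -0.24 (-0.59 to 0.11), from -0.41 without pool 11 to -0.04 without the wells of high ribosomal RNA share. Serpina3n, a secreted protease inhibitor, differed by -0.33 (-0.82 to 0.16) and C4b, a complement component made by these cells, by -0.20 (-0.62 to 0.23; -0.03 without CD38 mouse 4). Tm4sf1, a tetraspanin-like protein also known from endothelium, had the smallest p of the list, at 23.6 to 31.6 CPM in IgG (median 25.6) and 17.0 to 25.0 in CD38 mice (median 19.3), a difference of -0.44 with 6 CD38 mice below every IgG mouse. Genes of vascular fibroblasts and meninges were above 0 in 1 of 11 (median -0.25), with Slc13a4, a sulfate transporter of the meninges, at -0.63, and endothelial genes in 7 of 17 (median -0.09). Leaving out the wells of high ribosomal RNA share brought the meningeal median to -0.10.

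No neuronal gene was called. Presynaptic release genes were above 0 in 19 of 21, all by small amounts (median 0.09, or 0.04 without CD38 mouse 4 and 0.17 without the wells of high ribosomal RNA share), with Snap25 at 0.11 (-0.15 to 0.38; 0.03 without that mouse). Postsynaptic genes of glutamatergic synapses were above 0 in 13 of 25 (median 0.02), but in 22 of 25 (median 0.29) without the wells of high ribosomal RNA share and in 10 of 25 (median -0.05) without CD38 mouse 4. Inhibitory neuron genes were above 0 in 15 of 22 (median 0.06), or in 10 of 22 (median -0.0035) without those wells. Cortical layer genes were above 0 in 17 of 23 (median 0.03), with medians of 0.11 without those wells and 0.01 without CD38 mouse 4. Immediate early genes, transcribed after neuronal activity, were above 0 in 16 of 23 (median 0.13, or 0.04 without pool 7). Fosb of that family was at 122 CPM in CD38 mouse 4 against at most 10.4 in the other CD38 mice, and its difference of 1.48 was 0.35 without that mouse. For Homer1, a scaffold gene with an activity-induced form, the difference was 0.40 with that mouse and 0.11 without it. Other immediate early genes had values of -0.02 (Fos), -0.0007 (Arc), 0.07 (Egr1) and 0.0062 (Npas4). Larger were Egr3 at 0.72, Bdnf at 0.58 and Egr4 at 0.48, or 0.12, 0.06 and 0.32 without CD38 mouse 4. In hippocampus 20 of 23 were above 0 with a median of 0.28, or 16 of 23 and 0.07 without the well of CD38 mouse 4.

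Transgene-related genes and blood were measured as checks on the animals and the tissue. App, the amyloid precursor gene, was at 469 to 1053 CPM in IgG (median 577) and 512 to 772 in CD38 mice (median 595), a difference of -0.05 (-0.32 to 0.23; 0.13 without the wells of high ribosomal RNA share). Thy1, a neuronal surface glycoprotein, was at 578 to 1078 CPM in IgG (median 734), 675 to 1074 in CD38 (median 791) and 151 to 193 in WT mice, so the WT animals stood apart from both FAD groups, which differed by 0.15 (-0.13 to 0.43; 0.04 without the wells of high ribosomal RNA share). Whether these counts hold transcripts of the transgenes was not tested. The red blood cell list, 4 haemoglobin genes and Bpgm, had a median of 0.75, the largest of the lists with at least 3 tested genes in the reported fit. It was 0.09 with sample quality weights and 1.40 without pool 6. Hba-a1 ran from 36.5 to 328 CPM in IgG and from 58.7 to 472 in CD38 mice, a difference of 0.88 with an interval of -0.73 to 2.48 that was higher in 3 of 6 pools.

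**Figure D5:**
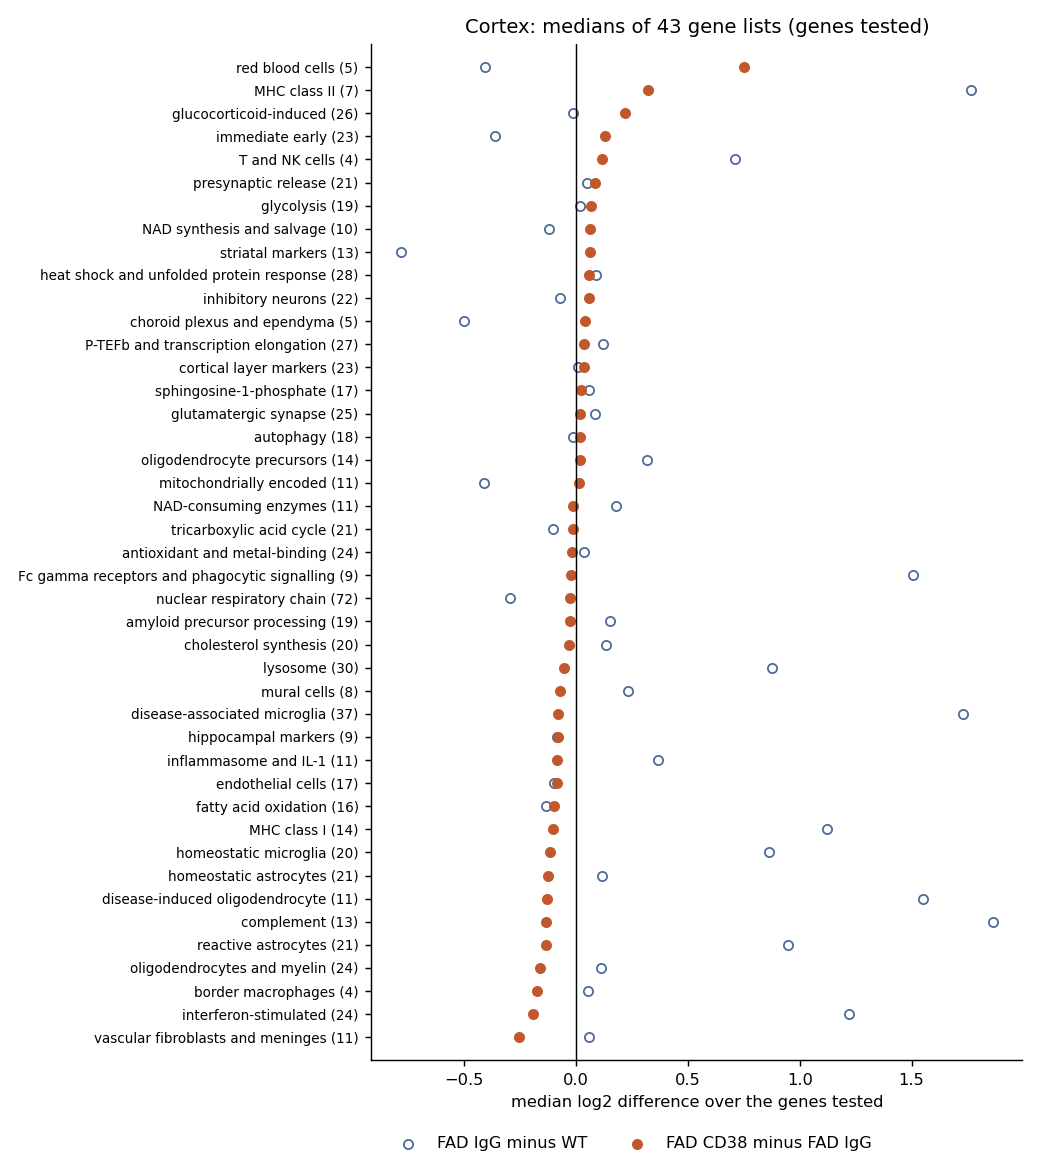
Median log2 difference over the tested genes (horizontal) of 43 gene lists with at least 3 tested genes, the number of genes in brackets, for FAD CD38 minus FAD IgG (filled) and FAD IgG minus WT (open), which share the IgG mice. The filled points lie between -0.25 and 0.32 except red blood cells at 0.75, while the open points reach 1.86 for complement.

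Over all 45 lists, 745 genes were tested and 0 were called, and in no list did the level per mouse separate the groups. Of the 43 lists with at least 3 tested genes, 19 had a median above 0 and 24 below, and 19 kept the sign of their median in all 35 other settings. Those with a median beyond 0.1 either way that kept it were the glucocorticoid-induced, immediate early, MHC class II and red blood cell lists on the higher side. On the lower side they were the interferon-stimulated, complement, oligodendrocyte, disease-induced oligodendrocyte, reactive and homeostatic astrocyte, MHC class I, homeostatic microglia, border macrophage and meningeal lists. Keeping the sign does not mean keeping the size: the median came down to 0.02 for MHC class II, 0.09 for red blood cells, 0.04 for immediate early genes, -0.02 for MHC class I, -0.02 for homeostatic microglia, -0.04 for complement and -0.0075 for disease-induced oligodendrocyte genes in the setting nearest to 0. The disease-induced oligodendrocyte median of -0.13 was -0.03 without CD38 mouse 4 and -0.22 without the wells of high ribosomal RNA share. A list's median is a description of these mice, since its genes are not independent of each other.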

How the data were processed

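Gene expression was measured by mcSCRB-seq in 47 wells from 24 mice. The deposited values are raw counts, whole numbers for each gene symbol in each well, and the deposited sample sheet gives each well's description as text that belongs to no other unit. The authors' tools included STAR 2.5.3a and bcl2fastq 2.17, per the submitters' processing notes. How reads were counted, the genome build, the annotation and the handling of molecular identifiers were not given in the sources used here. Counts come from 3' ends and are not scaled by gene length, so levels were not compared between genes. Of 20859 genes listed, 20721 had a symbol in the mouse tables used. Since a deposited sample pools several mice, mouse, region and treatment were read from the well name and the sheet. For 1 mouse of pool 8 the name gave IgG and the sheet CD38, and its 2 wells were left out. No pair of replicate cortex wells agreed within sampling noise (lowest chi-square per degree of freedom 2.95).

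Counts of the 23 cortex wells (7 IgG, 7 CD38, 9 WT) entered 1 model of group plus pool in edgeR 4.0.16 (R 4.3.3), with TMM factors, robust quasi-likelihood F tests (two-sided) and filterByExpr set to min.count 10 and min.total.count 15. A call needed an adjusted p under 0.05 by Benjamini-Hochberg over all 12968 genes tested. The difference between regions used limma 3.58.1. Levels are CPM on TMM-scaled library sizes, and list levels average log2 CPM over genes (prior count 2). Common dispersion had a square root of 0.197. The gene tests set a difference against the variation between mice left after group and pool, WT mice included, with dispersion estimates moderated across genes. The code was tested on simulated counts. Genes named were the 10 of smallest p in each direction, since none was called, the 2 members of smallest p of each list, and a set of check genes; other list members named in the text were chosen after their values were seen, and some genes are not reported here. The members, markers, gene lists and tests were chosen with earlier results of these data known. Alternatives were DESeq2 1.42.0, RLE factors, other filters, other covariates, other samples in the fit, voom with quality weights, and each mouse and each pool left out in turn.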

Additional observations from a re-analysis of the deposited data

Results flagged for a closer look

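Among 90 groups of 7 mice tested (20 genes of smallest p, check genes and library measures, in each FAD group), 9 had 1 mouse far from the other 6 by Dixon's criterion, and chance gives about 1 in 20 groups. CD38 mouse 4 was the distant one in 5. It was highest for Fgf9, at 6.95 log2 CPM against 5.31 to 5.77 in the other CD38 mice, and lowest for Adat2 (0.137 against 1.30 to 2.01), Clec7a (2.32 against 3.89 to 4.60), C4b (5.25 against 6.19 to 6.74) and Sirt3 (3.43 against 3.95 to 4.31). IgG mouse 5, the well of fewest counts and highest ribosomal RNA share, was highest of its group for Cela1 (4.51 against 3.46 to 3.86) and Jam2 (4.61 against 3.91 to 4.15). IgG mouse 4 was lowest for Aldh1a1 (5.02 against 5.62 to 5.90), and IgG mouse 3 highest for Apoe (13.01 against 12.4 to 12.7). Without CD38 mouse 4 the log2 differences of CD38 minus IgG were 0.31 for Fgf9, -0.78 for Adat2, 0.39 for Clec7a, -0.03 for C4b and 0.21 for Sirt3.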

How the results depend on the processing

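The count of called genes was 0 in each direction under all 35 other settings. The smallest adjusted p of any setting was 0.767, without the wells of ribosomal RNA share above 10%, a setting chosen after seeing the data. The number of genes at an unadjusted p under 0.05 was 195 in the reported fit. It was 802 without those wells, 534 with the ribosomal RNA share as a covariate, 438 with no filter on low counts (20852 genes tested), 343 with quality weights and 123 with only the FAD wells, and the cause of these differences was not tested. With each mouse or pool left out in turn it ran from 153 to 290. Leaving the pool out of the model gave 239. Counting the mouse of conflicting labels as IgG gave 200 and as CD38 193, each with 0 calls. The unequal genes between regions stayed at 0 in 3 alternatives, of which leaving out CD38 mouse 4 was chosen after seeing the data. Of 4221 recomputed values of named genes, 73 moved by more than 1 standard error of the reported fit and 0 were called. In some setting 23 of 121 genes changed sign. None of them was among the 20 genes of smallest p, which were chosen for their differences in these same wells. The median over all genes moved between -0.0196 and 0.0103. Levels of all 45 lists with a prior count of 0.5 stayed within the spread between mice. No paired analysis was possible because mice of the 2 groups share no animal or litter number in the labels, and the pool in the model is the only block. Genes of a few CPM, Cd38 among them, rest on few counts per well, which limits what can be seen of them.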

Other observations

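The mouse of conflicting labels, named IgG on its wells and CD38 on the sheet, belongs to no group. In its cortex, on library totals, Cd38 stood at 4.45 CPM (20 counts), Ccnt1 at 17.6, S1pr5 at 14.5, Fkbp5 at 21.8, Trem2 at 207, Gfap at 250 and Thy1 at 927. On the same scale IgG mice ranged from 10.2 to 15.8 for Ccnt1 and CD38 mice from 16.8 to 20.0, and for Fkbp5 the ranges were 13.9 to 26.1 and 20.7 to 45.5.

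Becn1, a core gene of autophagy, had the smallest p of its list. It was at 11.4 to 20.9 CPM in IgG mice (median 13.2), 8.20 to 12.7 in CD38 mice (median 9.14) and 6.78 to 15.3 in WT mice, with 5 CD38 mice below every IgG mouse. The log2 difference of Becn1 was -0.48 (95% interval -0.84 to -0.11, unadjusted p = 0.013), -0.28 without the wells of ribosomal RNA share above 10%, and -0.09 in hippocampus. Tfeb, a transcription factor of lysosomal and autophagy genes, stood on the other side at 0.40 (-0.01 to 0.81), with 5 CD38 mice above every IgG mouse. The 18 tested autophagy genes had a median of 0.02, 11 of them above 0, against a median of -0.09 with 6 above 0 without those wells. Without CD38 mouse 4 the autophagy median was 0.0021 with 9 of 18 above 0.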
